A study of Mus musculus with 13 samples.

Results

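Cell cycle and proliferation genes were examined in the livers of alcohol-fed mice. The members were picked by gene symbol, as genes whose products drive, mark or restrain cell division: Mki67, Top2a, Ccnb1, Ccna2, Cdk1, Ccnd1, Ccne1, Mcm2, Wee1 and Cdkn1a. They are 10 of the 53392 genes in the count table. All 10 passed the filter on low counts and were tested among 14317 genes.

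RNaseq of stranded poly(A) libraries was carried out on whole liver from 13 mice, in a study that lowers hepatic ceramides with an inducible ceramidase, ASAH1, under alcohol feeding. The mice were female littermates of 8 to 14 weeks, and each carried 2 copies of both an Albumin-Cre allele and a Rosa26-loxP-stop-loxP-rtTA allele, so that rtTA was limited to cells in which the albumin promoter had driven Cre. Only ASAH+ mice carried TRE-ASAH1, which rtTA activates when doxycycline (Dox) is given. The groups offer a control for the transgene by genotype or by diet. The paper chose the control by genotype, both on Etoh-Dox, as the least confounding.

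ASAH− mice received Etoh-Dox (n = 4), and ASAH+ mice received either Etoh-Dox (n = 5) or Etoh with no Dox (n = 4). Every mouse took 28% of calories from ethanol for 4 weeks in a Lieber-DeCarli liquid diet, and Dox was supplied at 200 mg/l. Titles of the ASAH+ samples state the opposite Dox treatment from their descriptions and induction labels. The descriptions were used, and Asah1 was then read in each library. Its level was 9668 to 15935 CPM (normalized read counts scaled to a common library size) in the 5 ASAH+ Etoh-Dox mice and 40.0 to 55.0 CPM in the other 8. Markers of hepatocytes summed to 82205 to 133020 CPM per mouse, and Alb was the most abundant of them. Total counts per mouse ran from 17819486 to 35358711, with a median of 24454043.

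Cells enter division when D-type cyclins and then cyclin E release E2F factors, load and fire the replication machinery, and finally activate CDK1 with cyclins A and B to start mitosis. WEE1 holds CDK1 inactive by phosphorylation, and p21, the product of Cdkn1a, inhibits cyclin-dependent kinases. Adult hepatocytes rarely divide, and in liver Wee1 and Cdkn1a are also known as genes under control of the circadian clock.

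Per kilobase of exon, the mean level over the 13 mice was highest for Ccnd1, at 20.8 CPM per kb. Wee1 followed at 3.77 CPM per kb and Cdkn1a at 3.48 CPM per kb. The ranges of these 2 genes overlapped almost throughout, from 0.628 to 8.01 CPM per kb for Wee1 and from 0.325 to 10.9 CPM per kb for Cdkn1a. The remaining 7 members lay lower: Mcm2 at 0.428, Ccne1 at 0.310, Mki67 at 0.263, Ccna2 at 0.244, Top2a at 0.234, Cdk1 at 0.186 and Ccnb1 at 0.102 CPM per kb as means over the mice. Neighbours in this lower part of the order had overlapping ranges over the mice, and differences between genes within a mouse were not tested. The members that mark S phase and mitosis were thus measured with few reads, 3 to 34 counts per mouse for Ccnb1, 6 to 45 for Cdk1, 7 to 66 for Ccna2, 18 to 107 for Top2a and 19 to 135 for Mki67. A count of 3 corresponded to 0.0830 to 0.173 CPM, depending on the mouse.

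**Figure D1:**
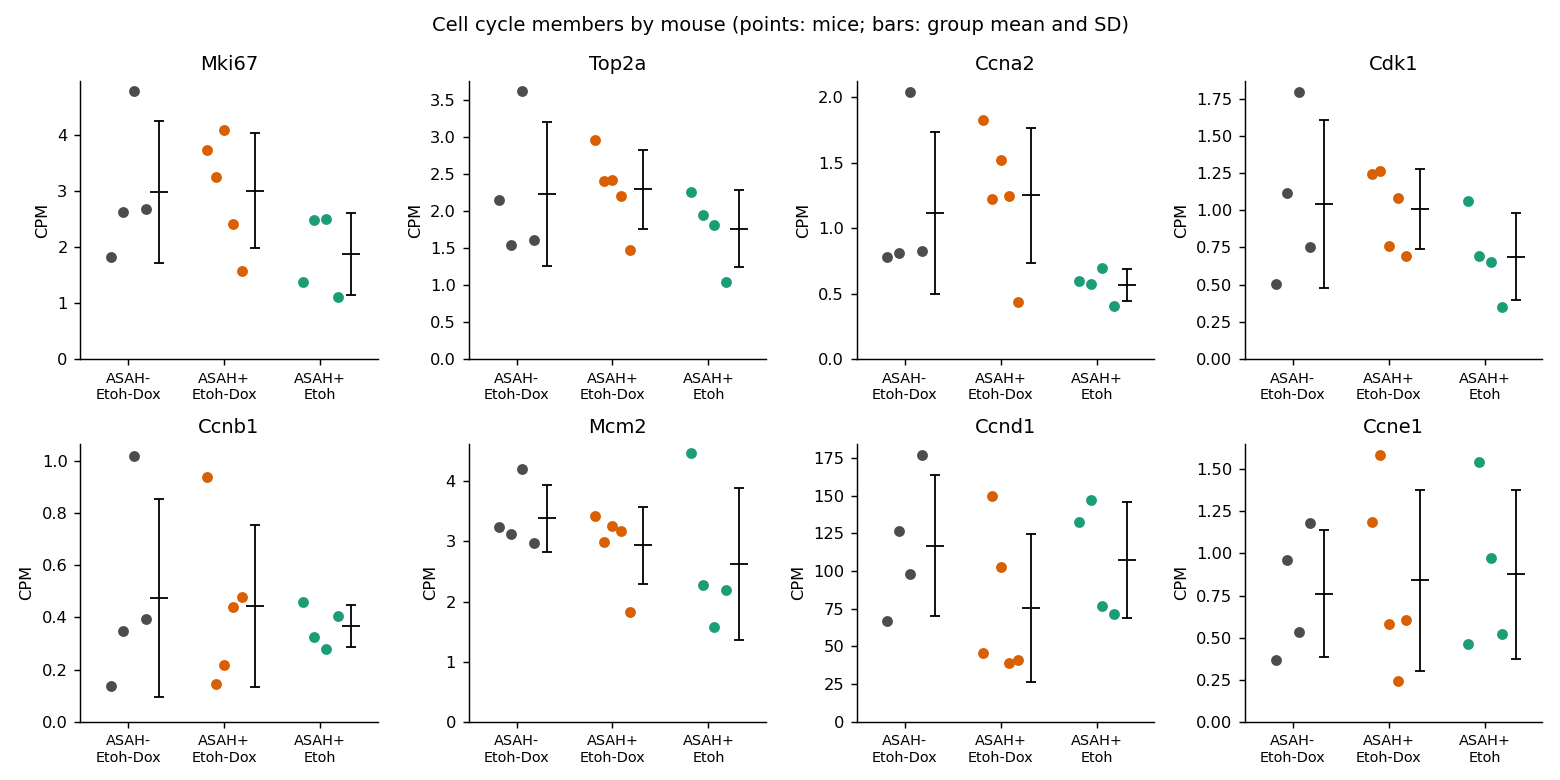
Level in CPM (linear axes from 0) of the 8 members other than Wee1 and Cdkn1a, 1 panel per gene, with a point for each mouse by group and bars for the group mean and SD. Ccna2 lies at 0.405 to 0.696 CPM in ASAH+ Etoh mice, below all 4 ASAH− Etoh-Dox mice, while the groups overlap in the other panels.

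Mki67, Top2a and Cdk1 each correlated with Ccna2 over the mice, as described further on, and their promoters are shown for that reason. RefSeq promoter entries (GRCm38.p6, 250 bases before to 50 after the start) were found for 7 of the 10 members, and none was matched for Ccna2, Ccnd1 and Wee1. Each sequence is written 5′ to 3′ on the strand of its gene, here the minus strand. Capitals mark TTTGAA, the letters of the cell cycle genes homology region (CHR), CCAAT, and the E2F letters TTTGGCGC, TTTCCCGC, TTTCGCGC or TTTGCCGC, each searched on both strands. No match overlapped a match of another motif. The promoters lie at chr7:135716330-135716629 for Mki67, chr11:99024140-99024439 for Top2a and chr10:69352863-69353162 for Cdk1.
Mki67: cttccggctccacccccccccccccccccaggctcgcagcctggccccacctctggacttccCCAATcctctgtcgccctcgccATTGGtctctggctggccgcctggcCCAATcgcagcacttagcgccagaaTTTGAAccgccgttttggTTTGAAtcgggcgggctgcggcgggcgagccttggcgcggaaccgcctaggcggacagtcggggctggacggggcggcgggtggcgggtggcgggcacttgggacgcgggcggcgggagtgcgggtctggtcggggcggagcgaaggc
Top2a: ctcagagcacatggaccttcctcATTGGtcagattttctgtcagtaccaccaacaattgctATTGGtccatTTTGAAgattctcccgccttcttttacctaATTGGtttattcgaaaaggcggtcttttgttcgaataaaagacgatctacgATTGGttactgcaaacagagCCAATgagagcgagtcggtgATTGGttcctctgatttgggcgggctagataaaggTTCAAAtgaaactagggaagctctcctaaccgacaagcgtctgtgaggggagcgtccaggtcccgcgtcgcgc
Cdk1: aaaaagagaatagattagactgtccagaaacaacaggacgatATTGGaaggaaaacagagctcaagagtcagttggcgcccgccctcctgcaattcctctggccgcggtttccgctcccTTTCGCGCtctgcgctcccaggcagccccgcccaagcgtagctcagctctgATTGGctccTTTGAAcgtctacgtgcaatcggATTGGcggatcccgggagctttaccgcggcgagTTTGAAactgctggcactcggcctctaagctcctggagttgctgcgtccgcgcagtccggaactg

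The Mki67 window held 2 CHR matches, at 116 and 98 bases before the start, and 3 CCAAT matches. The Top2a window held 2 CHR matches, at 179 and 23 bases before the start, and 6 CCAAT matches. In the Cdk1 window there were 2 CHR matches, at 71 and 15 bases before the start, 3 CCAAT matches and 1 E2F match. Mcm2 had 1 CHR and 1 CCAAT match and Ccnb1 had 2 CCAAT matches, while the windows of Ccne1 and Cdkn1a held none of these letters. The E-box CACGTG and the D-box TTATGTAA, letters bound by clock factors, were in none of the 7 genes' windows. Among all 32851 promoters of the same table, 17.9% held CHR, 37.4% CCAAT, 2.26% an E2F sequence, 7.15% the E-box and 0.938% the D-box.

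Mki67 (ENSMUSG00000031004, chr7:135689784-135716361, GRCm38, minus strand) encodes Ki-67, which coats mitotic chromosomes and is the common marker of cycling cells. Its level was 1.83, 2.62, 4.77 and 2.68 CPM in ASAH− Etoh-Dox mice, 3.73, 3.24, 4.09, 2.41 and 1.56 CPM in ASAH+ Etoh-Dox mice, and 1.38, 2.48, 2.51 and 1.10 CPM in ASAH+ Etoh mice, each in order of replicate. The ASAH+ Etoh group held the 2 lowest mice, and the ranges of all 3 groups overlapped. Group means were 2.98 ± 1.26 (SD, n = 4), 3.01 ± 1.02 (SD, n = 5) and 1.87 ± 0.733 CPM (SD, n = 4) in the same order. The Etoh-Dox groups had like means, and the Etoh group a lower one. In whole-liver RNA, fewer cells of a type and less RNA per cell cannot be told apart.

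Top2a encodes topoisomerase IIα, which untangles sister chromatids. It stood at 2.15, 1.54, 3.63 and 1.61 CPM in ASAH− Etoh-Dox mice, 2.96, 2.41, 2.42, 2.21 and 1.47 CPM in ASAH+ Etoh-Dox mice, and 2.26, 1.95, 1.81 and 1.04 CPM in ASAH+ Etoh mice. The highest mouse was ASAH− Etoh-Dox replicate 3, as for Mki67, and the lowest was ASAH+ Etoh replicate 4, again as for Mki67.

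Ccna2 (ENSMUSG00000027715, chr3:36564865-36572150, GRCm38, minus strand) encodes cyclin A2, which acts with CDK2 in S phase and with CDK1 on the way into mitosis. The values were 0.776, 0.809, 2.04 and 0.822 CPM in ASAH− Etoh-Dox mice, 1.83, 1.22, 1.52, 1.24 and 0.434 CPM in ASAH+ Etoh-Dox mice, and 0.599, 0.570, 0.696 and 0.405 CPM in ASAH+ Etoh mice. Each ASAH− Etoh-Dox mouse was above each ASAH+ Etoh mouse, and 4 of the 5 ASAH+ Etoh-Dox mice were as well, replicate 5 being the exception. Means were 1.11 ± 0.619 (SD, n = 4), 1.25 ± 0.517 (SD, n = 5) and 0.567 ± 0.121 CPM (SD, n = 4). Ccna2 shares 510 exon bases with Exosc9 on the opposite strand, which had 163 to 336 counts per mouse, and the use of strand in the counting is not given in the sources used here, so these low counts are uncertain.

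Cdk1, the kinase that starts mitosis, ranged from 0.347 CPM in ASAH+ Etoh replicate 4 to 1.80 CPM in ASAH− Etoh-Dox replicate 3. Its group means were 1.04 ± 0.563 (SD, n = 4), 1.01 ± 0.267 (SD, n = 5) and 0.687 ± 0.292 CPM (SD, n = 4). Ccnb1, whose product cyclin B1 is the partner of CDK1 in mitosis, ranged from 0.137 to 1.02 CPM, again with the highest value in ASAH− Etoh-Dox replicate 3. No difference of Ccnb1 between groups was detected, with 3 to 34 counts per mouse, and the part of depth in this was not tested. A pseudogene copy, Ccnb1-ps, had 0 counts in all mice.

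Mcm2 encodes a subunit of the replicative helicase that is loaded before S phase. Its highest level was 2.83 times its lowest, the smallest such ratio of the members, from 1.58 to 4.47 CPM, and both of these extremes were ASAH+ Etoh mice. Ccne1 encodes cyclin E1, which drives entry into S phase with CDK2, and spanned 0.241 to 1.59 CPM, with 6 to 44 counts per mouse.

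Ccnd1 (ENSMUSG00000070348, chr7:144929931-144939925, GRCm38, minus strand) encodes cyclin D1, which links growth signals to CDK4 and CDK6. Its level was 66.7, 126, 97.7 and 177 CPM in ASAH− Etoh-Dox mice, 45.3, 150, 103, 38.9 and 41.2 CPM in ASAH+ Etoh-Dox mice, and 133, 147, 76.9 and 71.5 CPM in ASAH+ Etoh mice. The 3 lowest mice were all ASAH+ Etoh-Dox mice, yet the other 2 mice of that group lay within the range of the remaining groups. The spread of Ccnd1 between mice of 1 group, an SD of 0.71 on the log2 scale, exceeded that of 98.9% of the 1003 genes of similar level. Ccnd1 shares 1100 exon bases with LTO1 on the opposite strand, which had 151 to 447 counts per mouse beside 950 to 4947 for Ccnd1.

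Wee1 (ENSMUSG00000031016, chr7:110122046-110143286, GRCm38, plus strand) encodes the kinase that inhibits CDK1, and Cdkn1a (ENSMUSG00000023067, chr17:29090976-29100727, GRCm38, plus strand) encodes p21. Wee1 was at 2.15, 18.5, 5.51 and 25.2 CPM in ASAH− Etoh-Dox mice, 22.4, 23.0, 2.78, 2.93 and 5.25 CPM in ASAH+ Etoh-Dox mice, and 15.6, 27.4, 13.2 and 3.59 CPM in ASAH+ Etoh mice. Cdkn1a was at 38.7, 1.16, 18.4 and 2.75 CPM in ASAH− Etoh-Dox mice, 2.82, 2.41, 34.5, 22.0 and 12.5 CPM in ASAH+ Etoh-Dox mice, and 2.81, 1.83, 2.41 and 18.3 CPM in ASAH+ Etoh mice. Where Wee1 was low Cdkn1a was high, in each of the 13 mice. For Wee1, 6 mice lay between 2.15 and 5.51 CPM and 7 between 13.2 and 27.4 CPM. For Cdkn1a, the same 7 mice lay between 1.16 and 2.82 CPM and the same 6 between 12.5 and 38.7 CPM. These 6 mice were replicates 1 and 3 of ASAH− Etoh-Dox, replicates 3, 4 and 5 of ASAH+ Etoh-Dox and replicate 4 of ASAH+ Etoh, so every group had mice on both sides.

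The spread of these 2 genes within groups was among the widest in the table. The SD within groups was 1.86 on the log2 scale for Cdkn1a, rank 74 of 14317 genes, and wider than in 99.9% of genes of similar level. For Wee1 it was 1.46, rank 141, and wider than in 99.8% of genes of similar level. Because the values lay in 2 ranges, no r over all 13 mice is given for either gene. Inside the 6 mice with high Cdkn1a, Wee1 and Cdkn1a had a Pearson r of -0.875 (exact permutation p = 0.0222, two-sided, n = 6), an adjusted p of 0.378 over 34 such relations by the exact permutation test, and a Spearman rho of -0.829 (exact permutation p = 0.0583). Without the 2 mice farthest from the median r was -0.894. Inside the other 7 mice r was -0.0265 (exact permutation p = 0.965, n = 7) and rho -0.0714 (exact permutation p = 0.906), and without the 2 mice farthest from the median r was 0.562. The 2 ranges were set from the levels of Wee1 and Cdkn1a after these were seen, which narrows the spread of both genes inside each. Correlations within the ranges therefore cannot decide the relation over all 13 mice. Within the ranges 0 of the 34 relations of Wee1 or Cdkn1a with each other or with another member passed an adjusted p of 0.1. An unadjusted exact permutation p under 0.05 was found for 2 of them.

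The other of these 2 relations was that of Ccnb1 with Wee1 in the 6 mice, with r of 0.881 (exact permutation p = 0.0194) and rho of 0.943 (exact permutation p = 0.0167), and r of 0.635 without the 2 farthest mice. Ccnb1 had few counts in these mice.

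The same division of the 13 mice at a gene's widest gap was found in 47 of the 14317 genes (0.328%), Wee1 and Cdkn1a included. Among the 17 genes of the circadian clock list it was found in 3, Arntl, Per2 and Per3. Arntl, the clock activator BMAL1, was at 15.6, 1.16, 9.43 and 1.11 CPM in ASAH− Etoh-Dox mice, 0.940, 0.829, 15.6, 17.3 and 8.81 CPM in ASAH+ Etoh-Dox mice, and 3.50, 1.26, 2.41 and 8.79 CPM in ASAH+ Etoh mice. It was high in the mice with high Cdkn1a. Per3, a clock repressor, was at 2.83, 37.2, 9.79 and 48.5 CPM, at 37.7, 47.9, 2.93, 5.25 and 13.1 CPM, and at 33.9, 38.7, 33.7 and 7.11 CPM in the same order of groups, high in the mice with high Wee1. The time of day at which each liver was taken is not given in the sources used here, and the part of the clock in the levels of Wee1 and Cdkn1a was not tested.

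**Figure D2:**
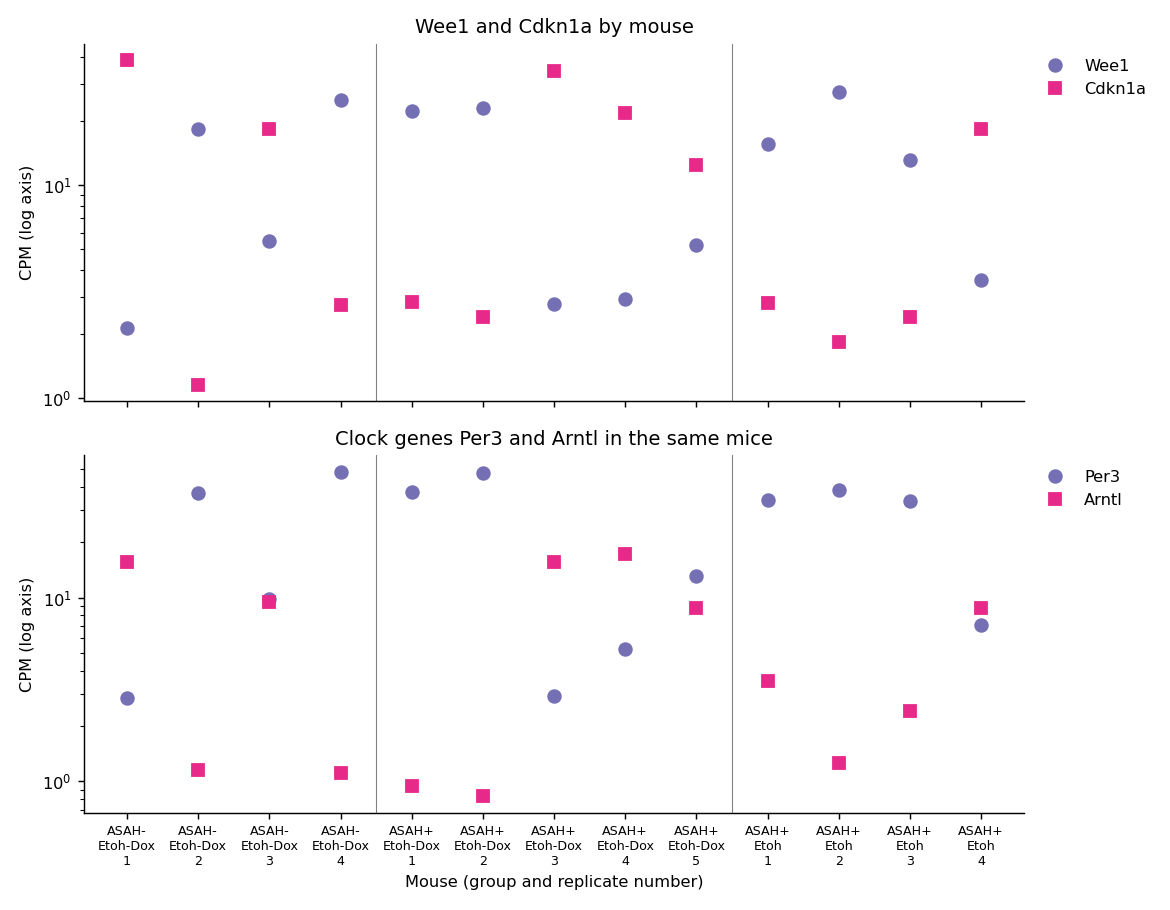
Level of Wee1 and Cdkn1a (upper panel) and of the clock genes Per3 and Arntl (lower panel) in each of the 13 mice, in CPM on log axes, with vertical lines between the groups. Cdkn1a lies at 12.5 CPM or more in 6 mice, where Wee1 is at 5.51 CPM or less, and each group has mice of both kinds.

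The 5 tested genes most like Wee1 over the mice were Per3, Fzd4, Tns3, Dgkd and Homer2, and those most like Cdkn1a were Slc45a3, Ccng2, Arntl, Npas2 and Nubp2. This choice takes in the gap between the 2 ranges of mice, so r of log2 CPM is given only within them. Inside the 6 and the 7 mice the r of Wee1 was 0.939 and 0.720 with Per3, 0.949 and 0.692 with Fzd4, 0.771 and 0.725 with Tns3, 0.884 and 0.930 with Dgkd, and 0.498 and 0.806 with Homer2. For Cdkn1a it was 0.785 and 0.778 with Slc45a3, 0.602 and 0.717 with Ccng2, 0.785 and 0.215 with Arntl, 0.903 and -0.275 with Npas2, and 0.521 and 0.687 with Nubp2. Npas2 had only 2 to 6 counts in each of the 7 mice, so its r there says little. Genes most like Mki67 by Pearson r over the 13 mice were Icos (0.904), Ccna2 (0.888), Rinl (0.873), Rgs12 (0.872) and Irf5 (0.860), and those most like Ccnd1 were Thumpd3 (0.883), Plpp3 (0.881), Cerkl (0.873), Tcf7 (0.870) and Fastkd2 (0.857). All of these are descriptions over 13 mice that share the 3 groups.

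Of the 28 pairs of members that leave out Wee1 and Cdkn1a, 7 were called at an adjusted p of 0.1 (permutation test of r, two-sided, Benjamini-Hochberg over all 45 pairs), all of them positive. The closest were Mki67 and Ccna2, with r of 0.888 (permutation p = 4e-05, adjusted p = 0.00135 by the permutation test), rho of 0.857 (permutation p = 0.000240) and r of 0.815 without the 2 farthest mice. Top2a and Ccna2 had r of 0.850 (permutation p = 0.000130, adjusted p = 0.00195), rho of 0.802 (permutation p = 0.00158) and r of 0.747 without the 2 farthest mice. For Ccna2 and Cdk1 r was 0.734 (permutation p = 0.00449, adjusted p = 0.0253), rho 0.764 (permutation p = 0.00372) and r without the 2 farthest mice 0.566. These 3 pairs were also the ones called on deviations from the group means.

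The other 4 called pairs were not called on those deviations. Top2a and Cdk1 had r of 0.762 (permutation p = 0.00278, adjusted p = 0.0236), rho of 0.676 (permutation p = 0.0137) and r of 0.402 without the 2 farthest mice. Mki67 and Top2a had r of 0.743 (permutation p = 0.00394, adjusted p = 0.0253), rho of 0.659 (permutation p = 0.0171) and r of 0.439 without them. Both relations rest largely on ASAH− Etoh-Dox replicate 3 and ASAH+ Etoh replicate 4, the mice left out. Mki67 and Cdk1 had r of 0.678 (permutation p = 0.0114, adjusted p = 0.0569), rho of 0.665 (permutation p = 0.0165) and r of 0.315 without the same mice. Top2a and Mcm2 had r of 0.637 (permutation p = 0.0187, adjusted p = 0.0843), rho of 0.780 (permutation p = 0.00253) and r of 0.540 without the 2 farthest mice. Without ASAH− Etoh-Dox replicate 3 alone, or without ASAH+ Etoh replicate 4 alone, 2 pairs were called, Mki67 with Ccna2 and Top2a with Ccna2. The remaining 21 of the 28 pairs were not called, and Ccnb1, Ccnd1 and Ccne1 were in none of the 7 called pairs. Of the 17 pairs with Wee1 or Cdkn1a, 3 had also passed the threshold over all mice: Wee1 with Cdkn1a, Ccne1 with Wee1, and Ccne1 with Cdkn1a. Inside the 6 and the 7 mice, Ccne1 and Wee1 had r of 0.544 (exact permutation p = 0.250) and 0.702 (exact permutation p = 0.0669), with rho of 0.429 (exact permutation p = 0.419) and 0.714 (exact permutation p = 0.0881), and r without the 2 farthest mice of 0.0215 and 0.825. Ccne1 and Cdkn1a had r of -0.314 (exact permutation p = 0.568) and -0.157 (exact permutation p = 0.674), with rho of -0.486 (exact permutation p = 0.356) and 0 (exact permutation p = 1.00), and r without the 2 farthest mice of -0.108 and 0.199. These 4 relations had adjusted p from 0.614 to 0.969 by the exact permutation test over the 34.

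**Figure D3:**
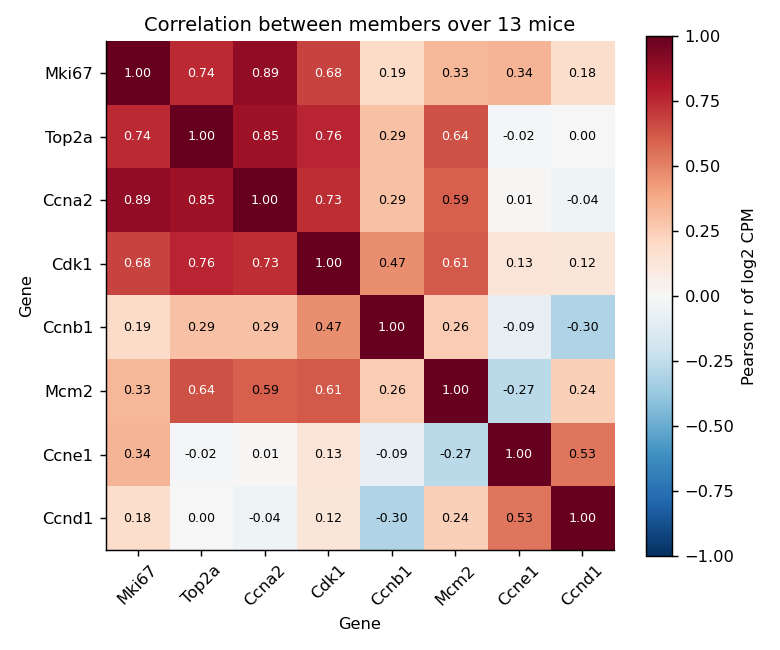
Pearson r of log2 CPM over the 13 mice for the pairs of members other than Wee1 and Cdkn1a, printed in each cell and shown as color. The called pairs are among Mki67, Top2a, Ccna2, Cdk1 and Mcm2, from r of 0.637 to 0.888.

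The comparisons between groups share mice: each group stands in 2 of the 3, so their values are given side by side and are not independent of each other. With Etoh-Dox given to both genotypes, ASAH+ mice were set against ASAH− mice to ask about the transgene, and the members differed little and without a common direction. Ccnd1 had the largest log2 fold change, -0.63 ± 0.44 (SE), and was higher in the ASAH+ mouse in 5 of 20 pairs of mice. It was -1.04 without ASAH+ Etoh-Dox replicate 2 and -0.36 without ASAH− Etoh-Dox replicate 4. Mki67 differed by 0.02 ± 0.33, Top2a by 0.05 ± 0.29, Ccna2 by 0.18 ± 0.38 and Cdk1 by -0.04 ± 0.36 (log2, SE). Without ASAH− Etoh-Dox replicate 3 these were 0.34, 0.39, 0.65 and 0.35, and without ASAH+ Etoh-Dox replicate 1 Ccna2 was 0.00. The SEs of Wee1, -0.18 ± 0.83, and of Cdkn1a, -0.03 ± 1.06, were far wider than those of the others. Ccnb1 differed by -0.07 ± 0.55, Ccne1 by 0.15 ± 0.51 and Mcm2 by -0.20 ± 0.26, the last by -0.06 without ASAH+ Etoh-Dox replicate 5.

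By edgeR's quasi-likelihood test, 0 of the 10 members passed an adjusted p of 0.1 in this comparison, where 0.0140% of all genes did (2 genes, Asah1 and Sod1), and each member's Benjamini-Hochberg adjusted p was 1.00. At an unadjusted p of 0.05, 0 members passed, beside 2.86% of all genes, and DESeq2 and limma-voom also called 0 members, beside 0.0756% and 0.0140% of the genes to which they gave an adjusted p. No member separated the groups without overlap, beside 0.887% of all genes. The smallest exact permutation p was that of Ccnd1, 0.190 (two-sided), where 5 against 4 mice allow 0.00794. Members had a median log2 fold change of -0.04, with 4 of 10 above 0, beside -0.00 over all genes. The confidence intervals leave room for differences of size: the 95% interval ran from -0.68 to 0.73 for Mki67 and from -1.60 to 0.34 for Ccnd1.

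Between ASAH+ mice with and without Dox, which takes in induction and Dox itself, Ccna2 had a log2 fold change of 1.14 ± 0.41 (SE), and was higher in the Dox mouse in 17 of 20 pairs of mice. Mki67 stood at 0.68 ± 0.34 and was higher in 16 of 20 pairs, and Cdk1 at 0.54 ± 0.38 and higher in 18 of 20. Top2a had 0.37 ± 0.29, Ccnb1 0.30 ± 0.57 and Mcm2 0.16 ± 0.27 (log2, SE). Ccnd1 at -0.50 ± 0.44, Wee1 at -0.40 ± 0.83 and Ccne1 at -0.06 ± 0.51 lay below 0, and Cdkn1a had 1.26 ± 1.12. Single mice moved several of these values: Cdkn1a was 0.66 without ASAH+ Etoh-Dox replicate 3 and 2.65 without ASAH+ Etoh replicate 4, and 0.35 with Dbp over Arntl, in log2, as a covariate. Without ASAH+ Etoh replicate 4 Top2a was 0.19 and Cdk1 0.33. Cdk1 was 0.82 without ASAH+ Etoh replicate 1. Ccnd1 was -0.91 without ASAH+ Etoh-Dox replicate 2 and -0.31 without ASAH+ Etoh replicate 2, and Ccnb1 was -0.22 without ASAH+ Etoh-Dox replicate 1.

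None of these differences passed the test: by edgeR 0 of 10 members had an adjusted p under 0.1, beside 0.0140% of all genes. DESeq2 on all mice gave an adjusted p to 1 member, Ccnd1, after its own filter, so its 0 called says nothing of the other 9. Without that filter and on the genes of the edgeR test, it gave one to all 10 and called 0, beside 0.503% of genes, with the smallest DESeq2 adjusted p 0.353 for Ccna2. By limma-voom 0 were called as well, beside 0.0140% of genes. At an unadjusted p of 0.05 edgeR had 1 member, Ccna2, beside 7.29% of all genes, so the share of the members was near that of all genes. Ccna2 had an edgeR adjusted p of 0.566 (0.290 to 0.902 over the alternatives) and an exact permutation p of 0.0556 (two-sided, n = 5 and 4). No member had groups without overlap, beside 2.58% of all genes. The median log2 fold change of the members was 0.34, with 7 of 10 above 0, and that of all genes 0.01.

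The third comparison set ASAH− Etoh-Dox mice against ASAH+ Etoh mice, which differ in both genotype and Dox while neither expresses the transgene at a raised level. Ccna2 was higher in the ASAH− Etoh-Dox mouse in 16 of 16 pairs of mice, with a log2 fold change of 0.95 ± 0.43 (SE). Mki67 had 0.66 ± 0.36 and was higher in 14 of 16 pairs, Cdk1 0.58 ± 0.40 in 12 of 16, and Mcm2 0.36 ± 0.28 in 12 of 16. Top2a had 0.32 ± 0.31, Ccnb1 0.38 ± 0.60, Ccnd1 0.13 ± 0.47, Ccne1 -0.21 ± 0.55, Wee1 -0.22 ± 0.88 and Cdkn1a 1.29 ± 1.17 (log2, SE). Without ASAH− Etoh-Dox replicate 3, Mki67 was 0.34, Cdk1 0.19, Top2a -0.01 and Ccnb1 -0.29. Mcm2 was 0.16 without ASAH+ Etoh replicate 3 and 0.74 without ASAH+ Etoh replicate 1, and Cdkn1a 0.23 without ASAH− Etoh-Dox replicate 1 and 2.67 without ASAH+ Etoh replicate 4. With Dbp over Arntl as a covariate Cdkn1a was 0.33, under the same limit.

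Again edgeR called 0 of 10 members at an adjusted p of 0.1, beside 0.0140% of all genes (mt-Co2 and mt-Co3). DESeq2 on all mice gave an adjusted p to 3 members, Ccnd1, Wee1 and Cdkn1a, and called 0 of them, beside 1.49% of genes. Without its own filter it gave one to all 10 and called 0, beside 0.803% of genes, with the smallest DESeq2 adjusted p 0.473 for Ccna2, and limma-voom called 0, beside 0.00698% of genes. At an unadjusted p of 0.05 there was 1 member, Ccna2, beside 9.19% of all genes, and 1 member, also Ccna2, had groups without overlap, beside 5.50% of all genes. Each share of the members was near that of all genes. Ccna2 had an edgeR adjusted p of 0.529 (0.364 to 0.927 over the alternatives) and an exact permutation p of 0.0286 (two-sided), the smallest that 4 against 4 mice allow. Without ASAH− Etoh-Dox replicate 3, the fold change of Ccna2 was the lowest of the fits that leave out a mouse, 0.49. The members' median log2 fold change was 0.37, with 8 of 10 above 0, beside 0.02 over all genes.

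**Figure D4:**
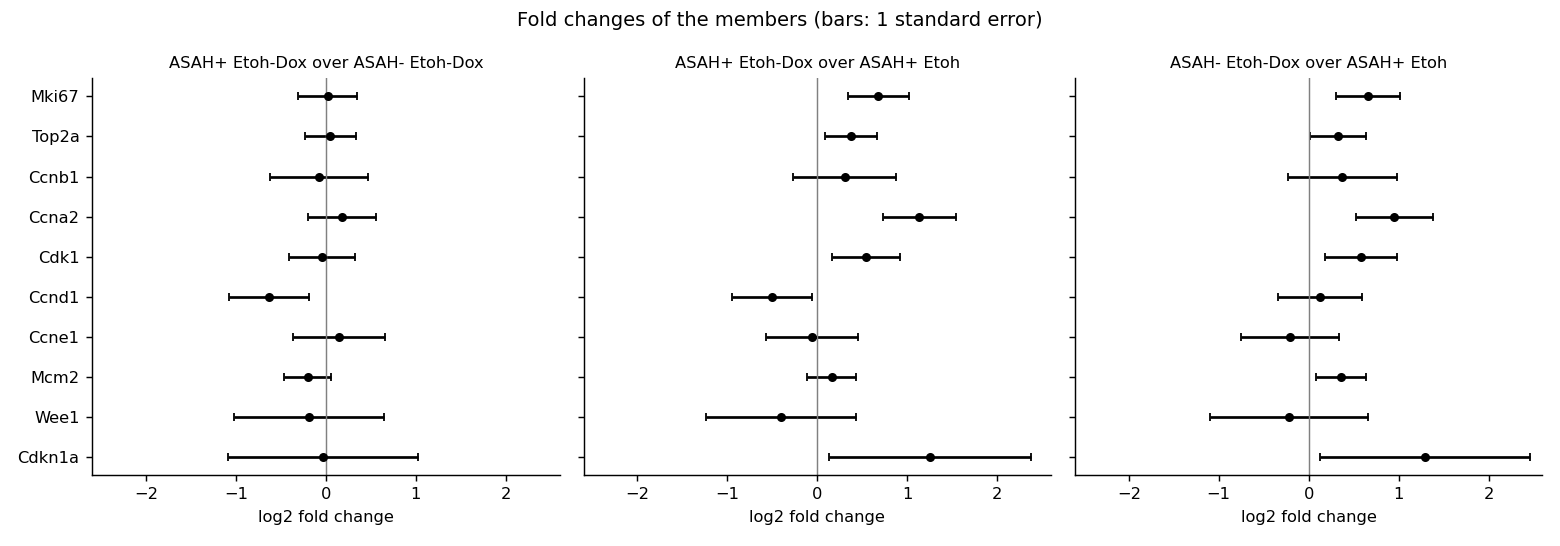
Log2 fold change of each member in each of the 3 comparisons, with bars for 1 SE on each side from edgeR. The bars of Wee1 and Cdkn1a are the widest, and Ccna2 lies at 1.14 and 0.95 in the comparisons with ASAH+ Etoh mice.

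The wider gene lists place the members among their relatives, as counts without a test of the list. Of 33 genes of mitosis and G2, 28 were tested, and 0 passed an adjusted p of 0.1 in any comparison by edgeR. For genotype within Etoh-Dox 0 had an unadjusted p under 0.05, beside 2.86% of all genes, 10 of 28 lay above 0, beside 49.3% of all genes, and the median log2 fold change was -0.04. The smallest p there was that of Ccnb2, cyclin B2, at -0.59 ± 0.42 (log2, SE). Between ASAH+ mice with and without Dox, 6 of 28 were higher and 0 lower at an unadjusted p of 0.05, beside 7.29% of all genes in either direction. Above 0 lay 26 of 28, beside 53% of all genes, and the median was 0.41. Between ASAH− Etoh-Dox and ASAH+ Etoh mice, 5 of 28 were higher and 0 lower, beside 9.19% of all genes in either direction. Above 0 lay 25 of 28, beside 53.2% of all genes, and the median was 0.53.

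Birc5, which encodes survivin of the chromosomal passenger complex, had the smallest p in both of these. Its level was 0.822, 0.848, 1.59 and 0.894 CPM in ASAH− Etoh-Dox mice, 0.913, 1.12, 0.759, 0.722 and 0.998 CPM in ASAH+ Etoh-Dox mice, and 0.599, 0.488, 0.325 and 0.520 CPM in ASAH+ Etoh mice. Every Etoh-Dox mouse of either genotype was above every Etoh mouse. Of all genes, 2.58% with Dox against without it in ASAH+ mice, and 5.50% in the other comparison, had groups without overlap in either direction. Birc5 had 13, 12, 7 and 9 counts in ASAH+ Etoh mice. The log2 fold change was 0.90 ± 0.29 against ASAH+ Etoh for ASAH+ Etoh-Dox mice, with an edgeR adjusted p of 0.530. For ASAH− Etoh-Dox mice it was 1.10 ± 0.30, with an edgeR adjusted p of 0.389. Beside Birc5 and Ccna2, the genes with an unadjusted p under 0.05 in both were Aurkb, a mitotic kinase, Nusap1, a spindle protein, and Hmmr, a spindle-associated hyaluronan receptor, and Tpx2, a spindle assembly factor, was so with Dox against without it. These 4 were named after their values were seen. Their counts in ASAH+ Etoh mice were low: 8, 3, 4 and 3 for Aurkb, 6, 9, 12 and 7 for Nusap1, and 10, 7, 3 and 3 for Hmmr. Tpx2 had 12, 11, 10 and 10.

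The summed level of the mitosis and G2 list was 38.2, 39.2, 59.2 and 38.8 CPM in ASAH− Etoh-Dox mice, 50.2, 44.3, 42.9, 41.6 and 34.1 CPM in ASAH+ Etoh-Dox mice, and 33.0, 38.5, 35.6 and 31.7 CPM in ASAH+ Etoh mice. ASAH− Etoh-Dox replicate 3 stood above all others, and the groups overlapped. Pttg1 was its most abundant gene and made up 38.3% of the sum.

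Of the 10 lists of cell type markers, those of Kupffer cells, erythroid precursors, T cells, B and plasma cells, and NK cells had medians above those of all genes in both comparisons with ASAH+ Etoh mice. Sinusoidal endothelium went the other way with Dox in ASAH+ mice, at a median of -0.42 with 3 of 5 lower and 0 higher at an unadjusted p under 0.05, and in the second of these comparisons had a median of 0.06 with 0 of 5. Cholangiocyte, hepatocyte, and neutrophil and monocyte markers had medians of -0.08, -0.02 and -0.08 in the first and 0.29, 0.13 and -0.02 in the second. Stellate cell markers had medians of 0.00 and 0.27, beside 0.01 and 0.02 over all genes. All 6 Kupffer cell markers lay above 0 in both, at medians of 0.27 for ASAH+ Etoh-Dox and 0.54 for ASAH− Etoh-Dox mice, with 0 and 4 of 6 at an unadjusted p under 0.05, beside 7.29% and 9.19% of all genes. Their summed level was 372, 362, 690 and 463 CPM in ASAH− Etoh-Dox mice, 493, 517, 269, 420 and 266 CPM in ASAH+ Etoh-Dox mice, and 350, 287, 315 and 324 CPM in ASAH+ Etoh mice, and Cd5l was the most abundant. Of 6 erythroid precursor markers 4 were tested, and 3 and 4 of them lay above 0 in the same comparisons, with 2 at an unadjusted p under 0.05 in each. Their summed level was 12.9, 29.4, 52.2 and 14.6 CPM, then 23.9, 16.6, 38.6, 16.3 and 24.7 CPM, and in ASAH+ Etoh mice 10.8, 13.6, 15.3 and 9.60 CPM, with Alas2 the most abundant. Of 6 T cell markers 5 were tested, and 4 and 5 of them lay above 0 in the 2 comparisons, with 0 and 1 at an unadjusted p under 0.05 and medians of 0.48 and 0.32. Of 6 B and plasma cell markers 5 were tested, and 5 and 4 lay above 0, with 1 and 2 at an unadjusted p under 0.05 and medians of 0.72 and 0.86. Of 4 NK cell markers 2 were tested, both above 0 in each, with 0 at an unadjusted p under 0.05 and medians of 1.00 and 0.41. Summed T cell markers stood at 2.15, 3.78, 3.51 and 3.43 CPM in ASAH− Etoh-Dox mice, 2.68, 6.20, 3.40, 2.81 and 2.34 CPM in ASAH+ Etoh-Dox mice, and 2.40, 3.30, 2.46 and 1.79 CPM in ASAH+ Etoh mice, with Lck the most abundant. Summed B and plasma cell markers, led by Jchain, were at 3.61, 4.47, 4.94 and 4.83 CPM, then 3.35, 7.64, 3.36, 6.82 and 4.64 CPM, and in ASAH+ Etoh mice 1.52, 4.52, 3.43 and 2.89 CPM. Those of NK cells, led by Klrb1c, were at 1.37, 0.963, 1.39 and 1.11 CPM, then 1.74, 2.41, 1.08, 1.32 and 2.00 CPM, and in ASAH+ Etoh mice 0.876, 1.30, 0.696 and 1.10 CPM. ASAH− Etoh-Dox replicate 3, the highest mouse for Mki67, Top2a, Ccna2, Cdk1 and Ccnb1, was also the highest for the summed markers of hepatocytes, Kupffer cells, erythroid precursors, endothelium and stellate cells. No marker was at 0 in all mice. The part of these cells in the levels of the mitotic genes was not tested.

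**Figure D5:**
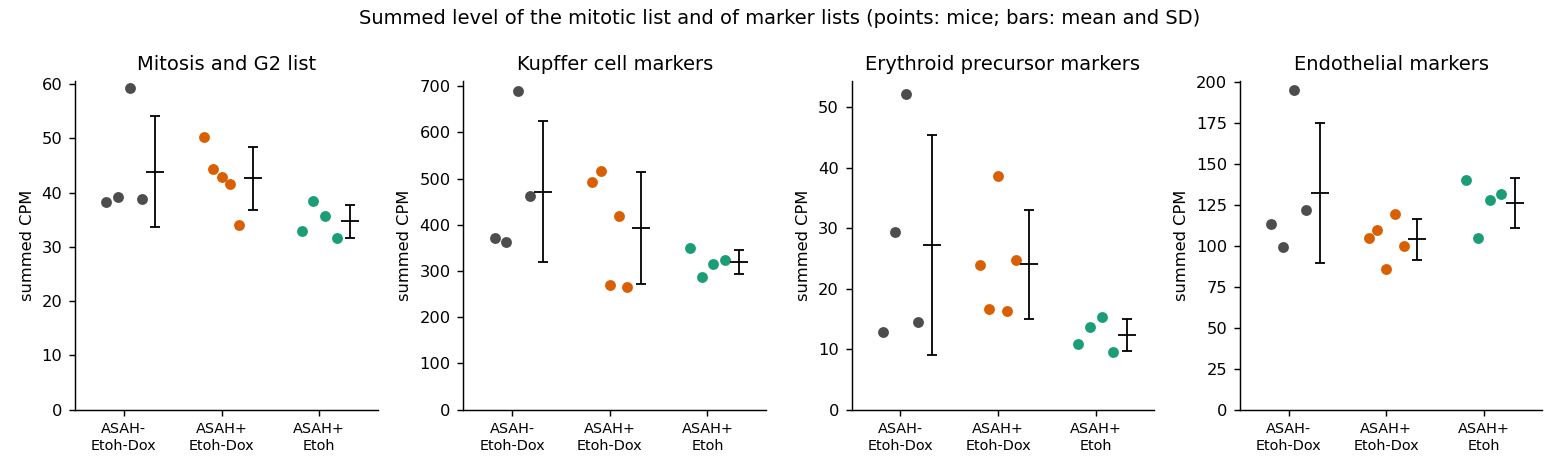
Summed CPM of the mitosis and G2 list and of Kupffer cell, erythroid precursor and endothelial markers, 1 panel per list, with a point for each mouse by group and bars for the group mean and SD. ASAH− Etoh-Dox replicate 3 is the highest for mitosis and G2, at 59.2 CPM, and for Kupffer cell markers, at 690 CPM.

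Of 24 genes of G1 to S control 23 were tested, with medians of 0.02 for ASAH+ over ASAH− on Etoh-Dox, -0.04 for Dox against no Dox in ASAH+ mice, and -0.03 for ASAH− Etoh-Dox over ASAH+ Etoh, and with 13, 8 and 8 of 23 above 0. At an unadjusted p of 0.05 they gave 0, 0 and 1 genes, beside 2.86%, 7.29% and 9.19% of all genes, the last being Skp2, a ubiquitin ligase subunit that degrades p27, at -0.75 ± 0.27. The smallest p in the first comparison was that of Fbxw7, which targets cyclin E, at 0.26 ± 0.14, and in the second that of Ccnd3, cyclin D3, at -0.23 ± 0.13 (log2, SE). Replication licensing, the list of Mcm2, had 20 of 23 genes tested, 0 at an unadjusted p of 0.05 in any comparison, medians of -0.06, 0.10 and 0.09, and 9, 15 and 15 of 20 above 0. Cdc45 at 0.48 ± 0.23, Orc6 at 0.27 ± 0.18 and Mcm4 at 0.33 ± 0.19, all parts of the origin or helicase machinery, had its smallest p in the 3 comparisons in turn.

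DNA synthesis, with all 23 genes tested, had medians of -0.03, 0.05 and 0.08, with 10, 16 and 14 of 23 above 0, and gave 0, 0 and 1 gene at an unadjusted p of 0.05. Pole, a replicative polymerase, had its smallest p in the first comparison at -0.38 ± 0.20, Uhrf1, a DNA methylation maintenance factor, in the second at 1.28 ± 0.60, and Tyms, thymidylate synthase, in the third at 0.27 ± 0.12 (log2, SE). Uhrf1 had 19, 8, 10 and 0 counts in ASAH+ Etoh mice, so its fold change is uncertain. Of 10 CDK1 checkpoint genes, the list of Wee1, 8 were tested and 0 had an unadjusted p under 0.05 in any comparison, with medians of -0.03, -0.06 and -0.13 and 3 of 8 above 0 in each. Cdc25b, a phosphatase that opposes WEE1, had the smallest p in the first and the third, at -0.39 ± 0.34 and 0.67 ± 0.37, and the checkpoint kinase gene Chek1 in the second at -0.68 ± 0.74.

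Of 8 CDK inhibitors 5 were tested, with 0 at an unadjusted p of 0.05 and medians of -0.03, 0.13 and 0.00. Cdkn2d, which inhibits CDK4 and CDK6, had the smallest p in the first 2 comparisons at 0.37 ± 0.23 and 0.39 ± 0.24, and Cdkn1a in the third. All 19 p53 targets were tested, with medians of 0.05, 0.05 and -0.07 and 0, 0 and 1 genes at an unadjusted p of 0.05. Ccng1 at 0.20 ± 0.12, Sesn1 at 0.20 ± 0.11 and Perp at -0.20 ± 0.09 had the smallest p in turn. The summed level of p53 targets without Cdkn1a was 428, 273, 326 and 289 CPM in ASAH− Etoh-Dox mice, 344, 289, 384, 370 and 289 CPM in ASAH+ Etoh-Dox mice, and 320, 297, 285 and 542 CPM in ASAH+ Etoh mice. The mouse with the highest sum, ASAH+ Etoh replicate 4, had 269 CPM of Trp53inp1, the most abundant gene of the list.

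All 17 genes of the circadian clock were tested and gave 0 genes at an unadjusted p of 0.05 in each comparison, with medians of 0.13, -0.05 and -0.17. Cry1, a clock repressor, at 0.37 ± 0.26 and Npas2, a clock activator, at 2.55 ± 1.43 and 2.67 ± 1.47 had the smallest p in the 3 comparisons. Npas2 had 6, 3, 2 and 11 counts in ASAH+ Etoh mice, so its fold changes are uncertain. All 9 glucocorticoid targets were tested, with medians of -0.07, -0.11 and -0.03. Lower levels at an unadjusted p of 0.05 were seen in 2 of them for genotype within Etoh-Dox, Mt2 at -1.19 ± 0.51 and Mt1 at -0.95 ± 0.42, both metallothioneins (2 of 9 beside 2.86% of all genes), and in 0 in the other comparisons, where Mt2 at -0.63 ± 0.51 and Klf9 at -0.31 ± 0.17 had the smallest p. No gene of these 9 lists had an edgeR adjusted p under 0.1 in any comparison.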

How the data were processed

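Whole-liver RNaseq of 13 mice was used. The authors mapped 100-base single-end reads with salmon to GENCODE M19 transcripts (GRCm38.p6) and summed them with tximport, and they deposited estimated counts for each gene, all whole numbers. Transcript lengths from tximport were not used. Reads shared by overlapping genes are divided by estimated abundance. Names and positions came from GENCODE M21, which held 53355 of 53392 identifiers, and sequences from RefSeq. Titles of ASAH+ samples were used only for replicate numbers.

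The main test was edgeR 4.0.16 in R 4.3.3 (quasi-likelihood, robust, TMM, filterByExpr, 14317 genes, 3 group means over 13 mice), with Benjamini-Hochberg adjustment over all genes and a threshold of 0.1. CPM are TMM-scaled. A second test of each member was the exact permutation test (two-sided) of mean log2 CPM (prior count 2). Correlations used 100000 permutations, of which the smallest possible p is 1e-05. The test was checked on simulated counts, and no conclusion here rests on that check. DESeq2 1.42.0, limma 3.58.1, python 3.11.15, numpy 2.4.6, scipy 1.17.1, pandas 2.3.3 and matplotlib 3.10.9 were used for alternatives, permutations and plots. Replicate libraries of a group differed beyond sampling noise (chi-square per degree of freedom 17.3 to 95.4 in 22 pairs). The libraries had no molecular identifiers, so floors cover counting error only.

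Named genes were the 10 members; in each of 9 lists and 10 cell type marker lists every gene past the threshold or, with none, the one with the smallest unadjusted p per comparison, with 1 result not given; and the 5 genes most like Mki67, Ccnd1, Wee1 and Cdkn1a by r. Aurkb, Nusap1, Hmmr, Tpx2, Mt1, Per2, Per3, Trp53inp1 and the genes called outside the lists were named after their values were seen. Members and lists were chosen with earlier results of these data known. After the values were seen, the pairs of Wee1 and Cdkn1a were given no pooled r, because of their 2 separate ranges: over all 45 pairs the count called had been 10, and over the 28 others it is 7. The correlations within ranges, the count of genes with the same gap and DESeq2 without its own filter were also added then. A set of 50 further correlations of Wee1 and Cdkn1a with clock and glucocorticoid genes was computed once and dropped for the same reason. Alternatives were other tools, normalizations, filters, a replicate block, a Dbp to Arntl covariate and leaving out each mouse.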

Additional observations from a re-analysis of the deposited data

Results flagged for a closer look

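Of 90 groups of 4 or 5 values examined for a single far value by Dixon's gap ratio, 6 had one, where chance gives about 1 in 20. Ccna2 in ASAH− Etoh-Dox replicate 3 was 2.04 CPM, against 0.776 to 0.822 CPM in the other 3 mice of its group. The summed mitosis and G2 list in the same mouse was 59.2 CPM, against 38.2 to 39.2 CPM. Mcm2 in ASAH+ Etoh-Dox replicate 5 was 1.82 CPM, against 2.99 to 3.43 CPM. Cdkn1a in ASAH+ Etoh replicate 4 was 18.3 CPM, against 1.83 to 2.81 CPM. The summed p53 targets in that mouse were 560 CPM, against 288 to 323 CPM. The summed T cell markers in ASAH+ Etoh-Dox replicate 2 were 6.20 CPM, against 2.34 to 3.40 CPM.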

How the results depend on the processing

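No member was called under any alternative that gave it an adjusted p (main value 0, edgeR). DESeq2's own filter left 10, 1 and 3 of 10 members with one on all mice, and 10, 9 and 4 when fitted to 2 groups at a time, so on the others those fits say nothing; without that filter all 10 had one and 0 were called. The filter of 10 counts in every mouse left out Ccnb1, Ccna2, Cdk1 and Ccne1. Of the members' log2 fold changes under alternatives, 688 kept their direction and 49 did not, and the cause was not tested. For ASAH+ over ASAH− on Etoh-Dox, limma-voom gave 0.0751 for Cdk1 and 0.42 for Cdkn1a, and the Dbp to Arntl covariate 0.0240 for Cdkn1a. With that covariate Ccne1 was 0.13 for Dox against no Dox. Moves of over 1.5 times included, for Dox against no Dox, Ccnb1 0.04, Mcm2 0.25 and Wee1 -0.68 by limma-voom and Wee1 -0.18 with the covariate, and for ASAH− Etoh-Dox over ASAH+ Etoh Ccnb1 0.08, Wee1 -0.47 and Cdkn1a 0.83 by limma-voom and Wee1 -0.11 and Ccne1 -0.07 with the covariate. Leaving out each mouse in turn gave, for ASAH+ over ASAH− on Etoh-Dox, -0.14 to 0.34 for Mki67, -0.0924 to 0.39 for Top2a, -0.59 to 0.60 for Ccnb1, -0.25 to 0.35 for Cdk1, -0.20 to 0.44 for Ccne1, -0.61 to 0.38 for Wee1 and -0.61 to 1.03 for Cdkn1a. For Dox against no Dox it gave -0.22 to 0.53 for Ccnb1, -0.41 to 0.37 for Ccne1, -0.0331 to 0.54 for Mcm2 and -0.83 to 0.0655 for Wee1. For ASAH− Etoh-Dox over ASAH+ Etoh it gave -0.0149 to 0.47 for Top2a, -0.29 to 0.64 for Ccnb1, -0.15 to 0.32 for Ccnd1, -0.50 to 0.23 for Ccne1 and -0.78 to 0.25 for Wee1.

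Over all genes, edgeR called 2, 2 and 2 in the 3 comparisons in this order, DESeq2 12, 95 and 150 with all mice fitted, then 11, 113 and 168 with 2 groups at a time, and 11, 72 and 115 on the genes of the edgeR test without its own filter. In the third comparison limma-voom called 1, the covariate fit 1, a threshold of 0.05 gave 0 and edgeR on the groups compared 0, and this last fit called 1 in the first. Without a count filter the second had 4. Leaving out a mouse gave 1 to 2, 2 to 8 (8 without ASAH+ Etoh replicate 2) and 0 to 2. Member pairs called were 7, on deviations from the group means 3, and 2 to 8 without a mouse, 2 without ASAH− Etoh-Dox replicate 3 or ASAH+ Etoh replicate 4. Of these pairs' correlations under alternatives 86 held and 21 were weaker. Counts were low for Ccnb1, Ccne1, Cdk1 and Ccna2, with as few as 3 to 7 in a mouse, and the part of depth was not tested.

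Replicate numbers share only a number: the correlation of deviations averaged -0.0462 over 12 same-numbered pairs (-0.265 to 0.190) and 0.0126 over 44 others. With the replicate number as a block, genes called were 1 in the first and 0 in the third comparison, Cdk1 in the first was 0.10 and Ccne1 in the second 0.0491. Also with it, Mki67, Top2a, Ccnb1, Ccna2, Mcm2 and Wee1 in the first were 0.23, 0.21, -0.21, 0.46, -0.08 and -0.33. In the second Ccnb1 and Mcm2 were 0.16 and 0.33, and in the third Ccne1 and Wee1 were -0.11 and -0.12.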

Other observations

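The marker lists of other liver cells gave the following genes with the smallest unadjusted p, with log2 fold change ± SE, and none passed an adjusted p of 0.1 by edgeR. Medians of the lists follow for ASAH+ over ASAH− on Etoh-Dox, for Dox against no Dox in ASAH+ mice and for ASAH− Etoh-Dox over ASAH+ Etoh mice, in this order, and none was tested as a list.

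Hepatocyte markers had medians of -0.24, -0.02 and 0.13, with Apoa1 at -0.28 ± 0.12, Cps1 at -0.70 ± 0.17 and Apoa1 at 0.54 ± 0.13. Kupffer cell markers had a median of -0.30 in the first comparison, with Clec4f at -0.29 ± 0.19, Adgre1 at 0.50 ± 0.32 in the second and Clec4f at 0.50 ± 0.20 in the third. Sinusoidal endothelium had -0.41, -0.42 and 0.06, with Pecam1 at -0.48 ± 0.15, Clec4g at -0.51 ± 0.16 and Cdh5 at 0.32 ± 0.21. Its summed level was 113, 99.2, 195 and 122 CPM in ASAH− Etoh-Dox mice, 105, 110, 86.2, 119 and 99.9 CPM in ASAH+ Etoh-Dox mice, and 140, 105, 128 and 132 CPM in ASAH+ Etoh mice.

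Stellate cell markers had -0.23, 0.00 and 0.27, with Reln at -0.37 ± 0.09, -0.10 ± 0.09 and 0.27 ± 0.09. Cholangiocyte markers had -0.35, -0.08 and 0.29, with Epcam at -0.44 ± 0.24, Spp1 at -0.19 ± 0.21 and Epcam at 0.29 ± 0.25. Neutrophil and monocyte markers had -0.34, -0.08 and -0.02, with S100a9 at -0.46 ± 0.38, S100a8 at -0.76 ± 0.53 and Ly6c2 at 0.37 ± 0.35.

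T cell markers had -0.07, 0.48 and 0.32, with Cd3e at -0.31 ± 0.38, 0.67 ± 0.42 and 0.98 ± 0.43. B and plasma cell markers had 0.35 and 0.86 in the first and the third comparison, with Jchain at 0.46 ± 0.47 and Cd79b at 0.86 ± 0.35. NK cell markers, 2 of 4 tested, had 0.59, 1.00 and 0.41, with Klrb1c at 0.54 ± 0.37 and 0.79 ± 0.39 and Gzma at 0.56 ± 0.65. Erythroid precursor markers had -0.18, 0.57 and 0.75, with Epor at -0.53 ± 0.32 and Alas2 at 1.17 ± 0.42 in the first and the third comparison. In the second it was Slc4a1, with 25, 1, 186, 4 and 33 counts in ASAH+ Etoh-Dox mice and 0, 1, 2 and 0 counts in ASAH+ Etoh mice, too few for a fold.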
